A study of Mus musculus with 8 samples.

Results

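The Notch pathway of sorted mouse intestinal stem cells is described here through 10 genes: the receptors Notch1, Notch2 and Notch3, the ligands Jag1, Dll1 and Dll4, the receptor-modifying enzyme Lfng, and the response genes Hes1, Hes5 and Nrarp. They were taken by name, as the array probes whose RefSeq accession belongs to one of these symbols. All 10 were on the array, among 21368 symbols in all, and all 10 were well above background on each of the 8 arrays. The samples were cells sorted for strong Lgr5 reporter fluorescence, read on Agilent expression arrays with 1 dye, 4 samples to a group. The control samples carried floxed alleles of Irf2 and the Lgr5 reporter (Irf2fl/fl:Lgr5-EGFP-Ires-CreERT2). The samples called Irf2_AhcKO carried the Ah-Cre transgene as well (Irf2fl/fl:AhCre:Lgr5-EGFP-Ires-CreERT2). Both groups received β-naphthoflavone on 5 consecutive days and were sampled 1 month later, so the inducer and the reporter allele, which itself encodes a hormone-dependent recombinase, are shared. Ah-Cre is driven by an inducible promoter that is not limited to stem cells. Ages are not given in the labels. IRF2 is a transcription factor of the interferon system, and the comparison asks what its conditional deletion changes in stem cells.

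Notch is a receptor that a ligand on a neighbouring cell switches on. Ligand binding exposes the receptor to cleavage, first by ADAM proteases and then by gamma-secretase, and the freed intracellular part joins the DNA-binding protein RBPJ and Mastermind-like coactivators to switch on genes such as Hes1, Hes5 and Nrarp. In intestinal crypts Notch signalling keeps stem and progenitor cells from turning into secretory cells, mainly by holding down the factor Atoh1, and Paneth cells present the Delta-like ligands Dll1 and Dll4 to the stem cells beside them.

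Values are log2 of the processed spot intensity minus the array's own 75th percentile, so that 1 unit is a doubling, and a level of 1 gene cannot be set against that of another. Between 61.4% and 69.8% of spots per array were well above background, and none was saturated; precision rests on how many arrays there are. Replicates 1 and 2 of both groups shared slide 1 and replicates 3 and 4 shared slide 2, and 35.5% of features differed between slides in limma's test (Benjamini-Hochberg adjusted p below 0.05). The 11 stem cell markers with a named probe, Lgr5 included, were well above background on all arrays. The probe of the targeted gene Irf2 went against the label: it was higher in Irf2_AhcKO within both slides, by 0.34 and 0.21, with a pooled difference of 0.27 (SE 0.12, limma adjusted p = 0.429). It stood at 0.99, 0.55, 0.37 and 0.64 in control replicates 1 to 4 and 1.12, 1.096, 0.70 and 0.73 in Irf2_AhcKO replicates 1 to 4. The sources used here do not say whether that probe lies in the floxed exons. The scanner data of all 4 arrays on slide 2, control replicates 3 and 4 included, carry names that mention Ah-Cre. All directions below are therefore between arrays as labelled. The sample labels do not say that each replicate came from a mouse of its own, so the spread behind the p-values may be partly technical.

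None of the 10 genes passed the threshold of the comparison (limma with the slide as a term, adjusted p below 0.05 over 25403 features), where 0.0984% of all features did. Jag1 and Nrarp were lower and Hes5 higher in Irf2_AhcKO with unadjusted p below 0.05, which makes 3 of 10 genes where 11.7% of all features had such a p. In Jag1 and Hes5 the groups did not overlap, which held for 3.85% of features. In these 3 genes the groups did not overlap within slide 1 or within slide 2, with the same direction on both, as was the case for 12.8% of features. The other 7 genes had differences between -0.27 and 0.18 with intervals that include 0. The median difference over the 10 genes was -0.10, with 7 negative values, beside a median of -0.02 and 55.3% negative values over the 15113 features with a symbol (-0.002 and 50.5% over all features).

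**Figure D1:**
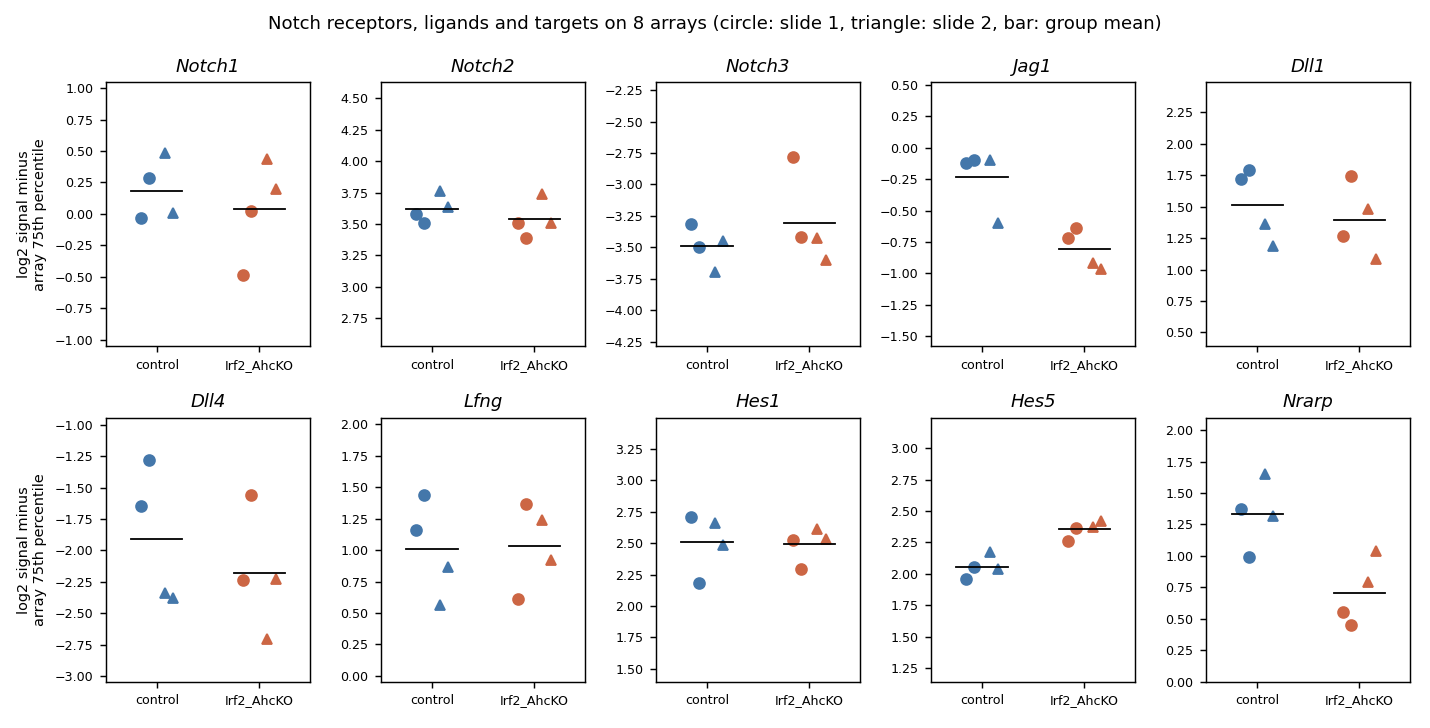
Log2 intensity of the 10 genes minus the 75th percentile of each array, with 1 point per array, control on the left and Irf2_AhcKO on the right of each panel. Circles are slide 1, triangles slide 2 and bars group means, and every panel spans the same 2.1 units. Jag1 and Hes5 have groups that do not overlap, Nrarp has groups that touch, and the other 7 panels overlap broadly.

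Among the receptors, Notch1, the main receptor of crypt stem cells, stood at -0.03, 0.28, 0.48 and 0.00 in control replicates 1 to 4. In Irf2_AhcKO replicates 1 to 4 it stood at -0.49, 0.03, 0.43 and 0.20, so that all but replicate 1 lay within the control range. The log2 difference was -0.14 (SE 0.18, 95% interval from -0.57 to 0.29, limma adjusted p = 0.764). A further Notch1 probe gave -0.12 (SE 0.11). Notch2, which acts beside Notch1 in the crypt, had a control level of 3.62 ± 0.11 (SD, n = 4) and an Irf2_AhcKO level of 3.54 ± 0.14 (SD, n = 4), a difference of -0.08 (SE 0.08, 95% interval from -0.28 to 0.11). Its dimmer probe had the opposite sign, at 0.11 (SE 0.09), and neither value was beyond the spread between arrays. Notch3, best known from the muscle cells of vessel walls, had a control level of -3.49 ± 0.16 (SD, n = 4) and an Irf2_AhcKO level of -3.31 ± 0.36 (SD, n = 4). Its highest value, -2.78, was that of Irf2_AhcKO replicate 1, while the other Irf2_AhcKO arrays lay between -3.60 and -3.42, within the control range of -3.70 to -3.31. The difference of 0.18 (SE 0.16, limma adjusted p = 0.649) was 0.03 without that array. With normexp background correction and all arrays kept it was 0.02.

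Jag1, a ligand of the Jagged class, was the ligand with the lowest unadjusted p. It stood at -0.12, -0.10, -0.10 and -0.60 in control replicates 1 to 4, and at -0.72, -0.63, -0.91 and -0.96 in Irf2_AhcKO replicates 1 to 4. Every Irf2_AhcKO array lay below every control array, with control replicate 4 close to the Irf2_AhcKO arrays and far from the other controls. The log2 difference was -0.58 (SE 0.11, 95% interval from -0.85 to -0.31), or 0.671 times the control level, with unadjusted p = 0.00141 and limma adjusted p = 0.168, rank 213 of 25403 features by p. It was -0.56 on slide 1 and -0.59 on slide 2. Without control replicate 4 it was -0.67 (adjusted p = 0.102).

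Dll1 and Dll4 showed no difference beyond their spread. Dll1 was printed as 10 spots per array, whose SD within an array lay between 0.04 and 0.09, while the SD between arrays of a group was 0.29. Its values were 1.72, 1.80, 1.36 and 1.19 in control replicates 1 to 4 and 1.27, 1.75, 1.48 and 1.08 in Irf2_AhcKO replicates 1 to 4, with broad overlap. The difference was -0.12 (SE 0.15, 95% interval from -0.46 to 0.22, adjusted p = 0.748). Dll4 had the widest spread among the ligands, with a control level of -1.91 ± 0.54 (SD, n = 4) and an Irf2_AhcKO level of -2.18 ± 0.47 (SD, n = 4), a difference of -0.27 (SE 0.19, adjusted p = 0.579). Much of that spread lay between the slides, since Dll4 was 0.73 lower on slide 2 than on slide 1 (slide effect -0.73, limma adjusted p = 0.0234), the only one of the 10 genes with such a slide effect.

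Lfng encodes a glycosyltransferase that extends sugars on the Notch receptor and so tunes which ligands can activate it. It was at 1.16, 1.44, 0.57 and 0.86 in control replicates 1 to 4 and at 0.61, 1.37, 1.24 and 0.92 in Irf2_AhcKO replicates 1 to 4. The groups covered nearly the same range, and the difference was 0.03 (SE 0.22, 95% interval from -0.50 to 0.55). The slides pointed in opposite directions, -0.31 on slide 1 and 0.37 on slide 2, and the interaction of group and slide had an unadjusted limma p of 0.136.

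The 3 response genes had differences of different sign, and none passed the adjusted threshold. Hes1, a repressor that Notch induces in crypt progenitors, was at 2.71, 2.18, 2.66 and 2.48 in control replicates 1 to 4 and at 2.52, 2.29, 2.61 and 2.54 in Irf2_AhcKO replicates 1 to 4. All Irf2_AhcKO values lay inside the control range, with a difference of -0.02 (SE 0.13, 95% interval from -0.33 to 0.29, adjusted p = 0.964). Hes5, a repressor of the same family that is best known from neural stem cells, was at 1.96, 2.05, 2.17 and 2.04 in control replicates 1 to 4. In Irf2_AhcKO replicates 1 to 4 it was at 2.27, 2.37, 2.37 and 2.42, each above every control array. The difference of 0.30 (SE 0.07, 95% interval from 0.13 to 0.47) equals 1.23 times the control level, with unadjusted p = 0.00435, adjusted p = 0.247 and rank 446 by p. The difference is small, and so was the variation between arrays, with a residual SD of 0.06 at percentile 4.96 of all features.

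Nrarp, a small protein that Notch induces and that limits Notch signalling by promoting the loss of its intracellular domain, had the largest difference of the 10 genes in size. It stood at 1.38, 0.99, 1.65 and 1.32 in control replicates 1 to 4 and at 0.55, 0.45, 0.79 and 1.04 in Irf2_AhcKO replicates 1 to 4. Only control replicate 2 on slide 1 and Irf2_AhcKO replicate 4 on slide 2 crossed, and within each slide both control arrays lay above both Irf2_AhcKO arrays. The difference was -0.63 (SE 0.13, 95% interval from -0.92 to -0.33), or 0.648 times the control level, with unadjusted p = 0.00154, adjusted p = 0.176 and rank 222 by p. It was -0.68 on slide 1 and -0.57 on slide 2. With normexp background correction, which called 133 features in all, Nrarp passed the threshold at a difference of -0.57 (adjusted p = 0.0393).

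**Figure D2:**
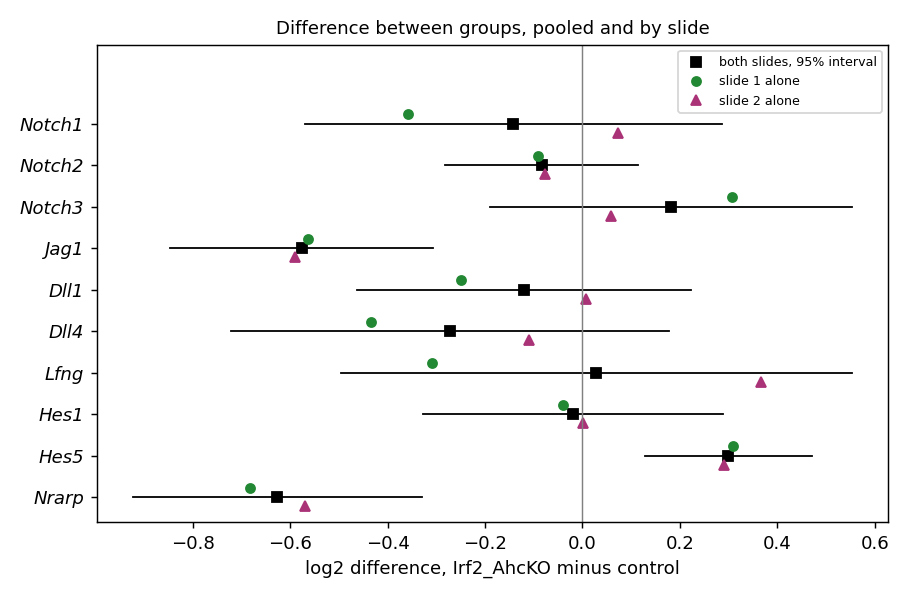
Log2 difference of Irf2_AhcKO minus control for each gene, with squares and lines for the estimate over both slides and its 95% interval, circles for slide 1 alone and triangles for slide 2 alone. The intervals of Jag1, Hes5 and Nrarp lie off 0 with both slides close to the pooled value, while Lfng has slides on opposite sides, at -0.31 and 0.37.

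None of the 10 genes passed limma's test of the interaction between group and slide (adjusted p of 0.999 for each), and 0 of all features did, with 1091 features (4.29%) at an unadjusted p below 0.05. With 2 arrays per group and slide that test has little precision. In Jag1, Hes5 and Nrarp the interaction terms (slide 2 minus slide 1) were -0.03, -0.02 and 0.11, and in Lfng 0.68.

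Upstream sequence is shown for Jag1, Nrarp and Hes5, the genes with p below 0.05, and for Lfng, the other gene whose window held the RBPJ core letters. RefSeq promoter windows of GRCm38.p6, 250 bases before to 50 after a start site, were given for 9 of the 10 genes (10 windows), all but Hes1. On either strand, the RBPJ core TGGGAA occurred in 2 of these windows, Hes5 and Lfng, and in 25.6% of all 32851 windows. The longer GTGGGAA, which contains it, occurred in the same 2 windows and in 6.38% of all. The IRF element GAAANNGAAA occurred in none of the 10 and in 3.44% of all windows. A match is only a match of letters, and no match speaks only of these windows.
The 200 bases before the start of Jag1 (chr2:137116521-137116720, minus strand) and of Nrarp (chr2:25180558-25180757, plus strand) hold neither core:
Jag1: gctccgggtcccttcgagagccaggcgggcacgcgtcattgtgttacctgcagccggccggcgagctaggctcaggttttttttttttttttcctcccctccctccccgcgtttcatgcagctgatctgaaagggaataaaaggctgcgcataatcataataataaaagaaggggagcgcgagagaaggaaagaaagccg
Nrarp: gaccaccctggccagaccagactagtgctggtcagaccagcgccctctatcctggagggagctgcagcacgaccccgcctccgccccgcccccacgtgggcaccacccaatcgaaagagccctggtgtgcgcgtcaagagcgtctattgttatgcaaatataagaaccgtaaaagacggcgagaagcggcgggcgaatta
The stretches around the matches of Hes5 (chr4:154960685-154960714 and chr4:154960829-154960858) and Lfng (chr5:140607191-140607270), all on the plus strand, have the RBPJ core in capitals, in either orientation:
Hes5 upstream match: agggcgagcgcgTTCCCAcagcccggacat
Hes5 match near the start: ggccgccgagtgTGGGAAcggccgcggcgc
Lfng: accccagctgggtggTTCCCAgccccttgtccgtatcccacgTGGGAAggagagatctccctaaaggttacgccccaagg
In Hes5 the matches began 226 and 82 bases before the start site, facing in opposite directions, and in Lfng 135 and 108 bases before it, likewise in opposite directions.

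Markers of other cells were read on the same arrays, since in sorted bulk samples fewer cells of a type and less RNA per cell cannot be told apart. Enterocyte markers were lower in Irf2_AhcKO beside Jag1 and Nrarp: 8 of 10 had a negative difference, 7 of these with unadjusted p below 0.05 (5.74% of all features were lower with such a p), and the median difference was -0.78. Ada went the other way, at 0.44 (SE 0.18) with unadjusted p below 0.05, and none of the 10 passed the adjusted threshold. The mean log2 level of the 10 markers ranged from 0.03 to 0.81 in controls and from -0.79 to -0.46 in Irf2_AhcKO. Sucrase-isomaltase (Sis) stood at 10.42 on control replicate 4 and at -0.79 or below on the other controls. Without Sis, chosen after its values were seen, the means ranged from -0.25 to 0.52 in controls and from -0.59 to -0.24 in Irf2_AhcKO. Control replicate 4, the control with the lowest Jag1, was the lowest control at -0.25. It was also the lowest control for the mean level of the stem cell markers (2.64) and of 6 epithelium markers (3.26). Control replicate 2, the control with the lowest Nrarp (0.99), had the highest enterocyte mean without Sis, at 0.52. The part of enterocyte RNA in the Jag1, Nrarp and Hes5 differences was not tested.

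The median difference was 0.38 over 6 tuft cell markers (4 positive and 2 negative, with 2 higher at unadjusted p below 0.05). Their mean log2 level ranged from -1.26 to -1.01 in controls and from -1.59 to -0.05 in Irf2_AhcKO. Over 10 leukocyte markers the median difference was 0.25 (9 positive, 3 higher with such a p), with mean levels from -1.34 to -0.84 in controls and from -1.01 to -0.75 in Irf2_AhcKO. Of all features 5.98% were higher with such a p, and none of these markers passed the adjusted threshold. The 10 enteroendocrine markers had a median of 0.01, with 5 positive and 5 negative differences. At unadjusted p below 0.05, 2 were higher, Chga at 0.72 (SE 0.18) and Tac1 at 0.54 (SE 0.15). At the same threshold 2 were lower, Gip at -0.75 (SE 0.25) and Neurog3 at -0.36 (SE 0.15). Of the 10, only Chga had groups that did not overlap. The secretory progenitor list, whose factor Atoh1 is held down by Notch in crypts, had 2 of 5 members higher and 3 lower, a median of -0.13, Creb3l4 at -0.47 (SE 0.17, unadjusted p below 0.05) and Atoh1 at 0.14 (SE 0.19, limma adjusted p = 0.778). All 8 goblet markers had negative differences, between -0.30 and -0.05, beside 55.3% negative over features with a symbol. Only Muc2 among them, at -0.30 (SE 0.12), had an unadjusted p below 0.05. The mean log2 level of the 8 goblet markers ranged from 2.90 to 3.43 in controls and from 2.78 to 3.56 in Irf2_AhcKO. Of 7 Paneth markers, from the cells that carry Delta-like ligands, 5 were measured. They had 3 positive and 2 negative differences and a median of 0.01. Only Mmp7, at 0.52 (SE 0.13, limma adjusted p = 0.251, rank 460 by p), had an unadjusted p below 0.05. Mptx1 had the largest difference in size among them, at -0.67 (SE 0.52). The mean levels of the 5 ranged from 2.31 to 2.97 in controls and from 1.76 to 3.44 in Irf2_AhcKO. Of 10 endothelial markers, from cells that use Dll4, Notch1 and Notch4, 7 passed the filter on dim probes. They had 3 positive and 4 negative differences and a median of -0.001. Only Egfl7, at 0.52 (SE 0.20), had an unadjusted p below 0.05. The mean levels of the 7 ranged from -1.67 to -1.31 in controls and from -1.58 to -1.37 in Irf2_AhcKO. The endothelial markers Cdh5, Tie1 and Emcn were not well above background on any array. Of 10 pericyte and mesenchyme markers 6 passed the filter, with 2 positive and 4 negative differences. Their median was -0.13, and none had an unadjusted p below 0.05. The 11 stem cell markers had 5 positive and 6 negative differences and a median of -0.008, and none had such a p. They ran from Ascl2 at -0.46 (SE 0.20) to Tnfrsf19 at 0.56 (SE 0.24), with Lgr5 at -0.29 (SE 0.16).

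Of 59 other Notch pathway genes, 57 had a named probe and 49 passed the filter on dim probes. None passed the adjusted threshold, 8 of 49 (16.3%) had an unadjusted p below 0.05 (2 higher, 6 lower) beside 11.7% of all features, and the median difference was -0.06 with 29 negative values. The genes of receptor cleavage were all on the lower side, with 7 of 7 measured negative and a median of -0.24, beside 55.3% negative over features with a symbol. Among them Adam17, a protease that can shed Notch, was at -0.24 (SE 0.09, limma adjusted p = 0.386), and Aph1a, a subunit of gamma-secretase, at -0.26 (SE 0.11, adjusted p = 0.415), both with an unadjusted p below 0.05. Adam10, the main protease of ligand-driven cleavage, was at -0.15 (SE 0.08). These are small values, and the 7 genes were read on the same arrays, so they are not separate observations.

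In the nuclear complex, 9 of 19 genes were higher and 10 lower, with a median of -0.002. Kat2b, a histone acetyltransferase that is recruited as a coactivator, had the smallest p of all pathway genes, at 0.65 (SE 0.10, unadjusted p = 0.000392, limma adjusted p = 0.113). Its groups did not overlap, with a control level of -0.63 ± 0.18 (SD, n = 4) and an Irf2_AhcKO level of 0.02 ± 0.17 (SD, n = 4). Its paralogue Kat2a was at -0.28 (SE 0.12), the Mastermind-like coactivator Maml1 at -0.33 (SE 0.14) and the deacetylase Hdac1 at -0.19 (SE 0.08), each with an unadjusted p below 0.05. Of these only Hdac1 had groups that did not overlap. Over the 49 other pathway genes 3 had such groups, beside 3.85% of all features. Rbpj itself, the DNA-binding partner of Notch, was at 0.06 (SE 0.12, adjusted p = 0.863).

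Among ligands and their handling, Dll3, a divergent Delta-like protein that acts inside the cell, was at -0.60 (SE 0.18, limma adjusted p = 0.319), with 3 of 4 Irf2_AhcKO arrays well above background. Neurl1a, a ubiquitin ligase that promotes ligand uptake, was at 0.38 (SE 0.11, limma adjusted p = 0.298), with groups that did not overlap. Both had an unadjusted p below 0.05. The remaining groups had no gene with an unadjusted p below 0.05. Their lowest p values belonged to the receptor Notch4 (-0.26, SE 0.14), the glycosyltransferase Mfng (0.19, SE 0.09), the Deltex family member Dtx3 (0.68, SE 0.32, detected on 2 of the 4 control arrays and 3 of the 4 others) and Hes6 (-0.29, SE 0.18). Of the other Hes and Hey factors, Hes3, Hey2 and Heyl were not well above background on any array.

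**Figure D3:**
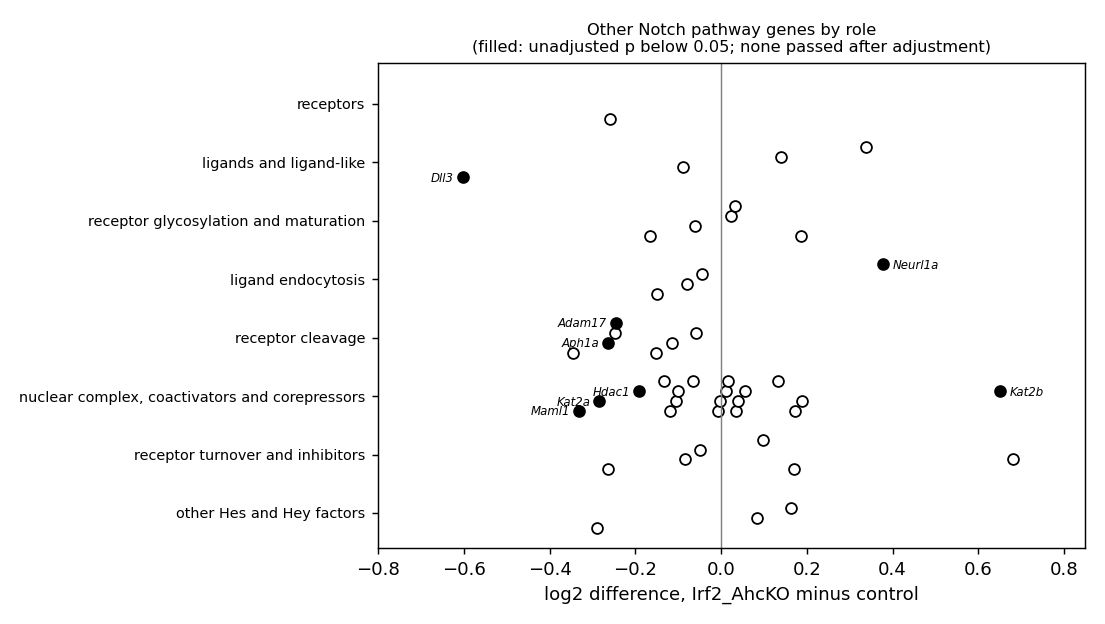
Log2 difference of Irf2_AhcKO minus control for 49 other Notch pathway genes, grouped by role, with 1 point per gene and filled points for an unadjusted limma p below 0.05. All 7 receptor cleavage genes lie left of 0, while the nuclear complex spreads to both sides, from Maml1 at -0.33 to Kat2b at 0.65.

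The genes with the most similar profiles over the 8 arrays were found by the root mean square distance between mean-centred log2 values, a description with no test. Closest to Nrarp was Gstk1 (distance 0.09, where Nrarp itself spanned 1.199), then Ppard (0.12) and Avpi1 (0.16). Closest to Jag1, which spanned 0.86, were Tmem35b (0.11), Spring1 (0.12) and Bhlha9 (0.12). Closest to Hes5, which spanned 0.46, were Spice1 (0.06), Cep290 (0.07) and Mgam (0.07). None of the 3 was among the nearest profiles of another.

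**Figure D4:**
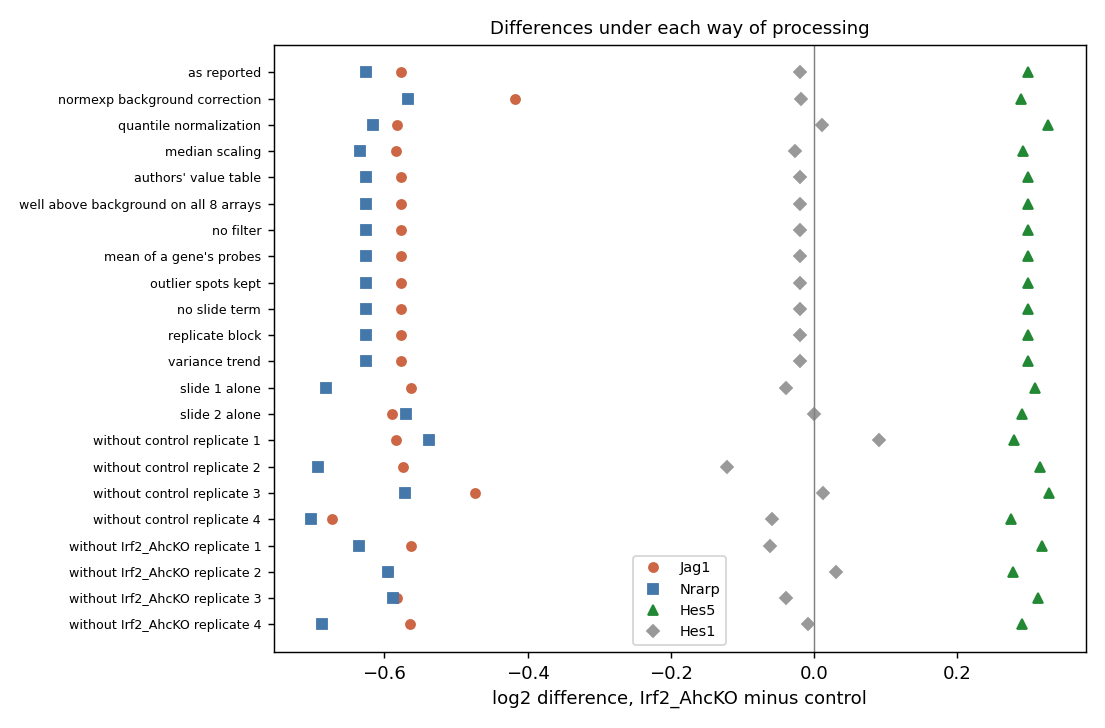
Log2 difference of Irf2_AhcKO minus control for Jag1, Nrarp, Hes5 and Hes1 under the processing as reported and 21 alternatives, 1 per line. Jag1 stays between -0.67 and -0.42, Nrarp between -0.70 and -0.54 and Hes5 between 0.28 and 0.33, while Hes1 lies on either side of 0.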

How the data were processed

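RNA of 8 samples was measured on 1 array each. Per the labels' protocols, 20 ng of total RNA were amplified (Ovation Pico WTA) and labelled with Cy3, which can distort single transcripts. The deposited intensity values come from Agilent's Feature Extraction software, version 11.5.1.1 by the submitters' processing notes, and per the file headers are background-subtracted and spatially detrended. The authors' deposited value table holds that intensity times 1 constant per array (6.41 to 6.90), linear and uncentred, for a reason not given in the sources used here; its column medians lay between 207 and 246.

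From each array's log2 values the 75th percentile of its 59305 non-control spots was subtracted. Outlier spots were left out of probe means. Probes well above background on at least 4 arrays were kept, with 1 probe per gene (highest mean) or identifier. Of 55681 probes, 28331 got a symbol through RefSeq accessions (GRCm38.p6 table) and 27350 none. The comparison used lmFit and eBayes of limma 3.58.1 (R 4.3.3, two-sided) over all 25403 features, with the slide as a term; the code was tested on simulated data. Same-numbered arrays deviated together from group means (r of 0.459 to 0.533 across features). With slide means removed r was 0.0465 and 0.214, so much of this went with the slide, which the comparison fits. The labels name no shared litter or day, so whether the numbers mark pairs is not known. The comparison does not pair them, and a fit that does is given below. No arrays were identical.

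The members, lists and tests were chosen with earlier results of these data known. Named were all 10 members with every probe, Irf2, other pathway genes with an unadjusted p below 0.05 or, in a role with none, the lowest p, and the nearest 3 profiles of Jag1, Nrarp and Hes5. Adam10, Rbpj, the single markers and the undetected genes were added later. The normexp alternative used the median spot signal in place of the mean, which the files used here do not list.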

Additional observations from a re-analysis of the deposited data

Results flagged for a closer look

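The level of Jag1 on control replicate 4 was far from the other controls: -0.598, against -0.123 to -0.098 on replicates 1 to 3. The gap was 0.95 of the group's range, above Dixon's 95% critical value for 4 samples. It was 1 of 22 groups of 4 checked (10 genes and Irf2 in both groups), and chance gives about 5%. On the same array Sis stood at 10.42. Without that array the Jag1 difference was -0.67.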

How the results depend on the processing

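The number of features passing was 25, and 133 with normexp, 118 with a variance trend, 46 with probes well above background on all 8 arrays, 7 with no filter and 0 on slide 1 alone (2538 at an unadjusted limma p below 0.05) or slide 2 alone (1336). With the replicate block, which treats same-numbered arrays as pairs, it was 0 (3292 at an unadjusted limma p below 0.05), and no member's call changed. Leaving out 1 array gave 0 to 25: 0 without control replicate 2, Irf2_AhcKO replicate 1 or replicate 2, 1 without Irf2_AhcKO replicate 3, 3 without replicate 4, and 6 and 11 without control replicates 3 and 1. Over 21 alternatives Jag1, Nrarp, Hes5, Notch3 and Dll4 kept their direction, and the only call of a member was Nrarp with normexp. Jag1 and Nrarp had an unadjusted p below 0.05 in all 21 and Hes5 in 19, missing it on either slide alone; the value table gave the values as reported, since its constant per array cancels in the scaling, and is no separate check. Signs of values near 0 changed, for a cause not tested: on slide 2 alone Notch1 (0.073), Dll1 (0.0083) and Hes1 (0.00077), on slide 1 alone Lfng (-0.309), with quantile normalization Hes1 (0.011) and with the mean of its probes Notch2 (0.012). With 1 array left out, Notch1 ranged from -0.281 to 0.0038, Dll1 from -0.226 to 0.0013, Lfng from -0.103 to 0.248 and Hes1 from -0.121 to 0.090. Signal over background limits the dimmest probes most, among them Dll3, which was not well above background on every array.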
